A study of Homo sapiens with 6 samples.

Results

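The genes described here are 10 metalloproteinases of the ADAM and ADAMTS families that were chosen by name: ADAM8, ADAM9, ADAM10, ADAM12, ADAM15, ADAM17, ADAM19, ADAMTS1, ADAMTS5 and ADAMTS6. All probe sets whose platform annotation gives 1 of these symbols were taken, which made 29 of the 54613 probe sets tested and 10 of 19775 genes. They were measured in single clones of MDA-MB-231, an established human line of triple-negative breast cancer with a mesenchymal, invasive character. The knockdown group was made of 3 clones with a retroviral pSM2 vector that expresses a short hairpin RNA against WASF3, and the control group of 3 clones with the empty vector or a hairpin against GFP. Every clone of both groups was puromycin-resistant (1.0 µg/ml for 2 weeks) and at passage 4, and was read on 1 Affymetrix array. Each sample is 1 clone, so a difference between clones of a group can be a trait of that clone, and the labels do not say which hairpin or which control vector a given clone carries.

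ADAM proteases are membrane-anchored enzymes with a zinc-dependent catalytic domain and a disintegrin domain, and most of the members studied here cut the ectodomains of other membrane proteins close to the cell surface. This shedding releases growth factors, cytokines and adhesion molecules and starts Notch receptor cleavage. ADAMTS proteases have no membrane anchor, carry thrombospondin repeats and act on proteoglycans and other components of the extracellular matrix. Both families are made as inactive precursors and are activated by removal of a prodomain. Some of their members, but not all, are held in check by tissue inhibitors of metalloproteinases (TIMPs).

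Values are log2 RMA signals, and each change is the knockdown mean minus the control mean with its standard error (SE) in limma, where 1 unit is a doubling. A gene was represented by its brightest probe set, and a call required an adjusted p (Benjamini-Hochberg over all 54613 probe sets) under 0.05. WASF3, the targeted gene, read 5.40, 5.80 and 4.52 in knockdown clones 1, 2 and 3, against 6.77, 6.42 and 6.59 in control clones 1, 2 and 3. Every knockdown clone was below every control clone, and the knockdown mean was 39.2% of the control signal, but the change of −1.35 (SE 0.29) missed the threshold (adjusted p = 0.102). RNA quality was followed by the 3′ minus 5′ difference in signal of the GAPDH and ACTB controls on the array. This 3′/5′ index averaged 1.80 ± 0.27 in knockdown clones and 1.29 ± 0.17 in control clones (SD, n = 3 each) without overlap of the groups (exact two-sided permutation p = 0.1, the smallest that this design allows). The index therefore goes with the groups, and a fit that holds both cannot fully tell the index and the knockdown apart. Mesenchymal markers of the line, VIM and CD44 among them, were bright (7 genes, 11.6 to 14.1 in knockdown and 11.8 to 14.3 in control clones), while 8 leukocyte markers lay between 3.27 and 5.69 in knockdown and between 3.20 and 5.79 in control clones. Probe sets of 8 genes of unrelated tissues, such as insulin, gave means of 2.85 to 5.86 in knockdown and 2.84 to 6.01 in control clones. A member in that range is not shown to be expressed.

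None of the 10 members passed in limma on its brightest probe set, where 0.738% of all genes did, and none of the 29 probe sets did, where 0.558% of all probe sets did. An unadjusted p under 0.05 was reached by 4 of the 10 members, against 16.8% of all genes. The higher one was ADAMTS1 (1 of 10, against 9.11% of all genes), and the lower ones were ADAM8, ADAM15 and ADAM19 (3 of 10, against 7.67%). The knockdown and control clones did not overlap in 5 of the 10 members, against 24.7% of all genes. In 4 the knockdown clones were below, against 12.6% of all genes, and in 1 they were above, against 12.1%. ADAM17 was the fourth of those below, with a much smaller difference. The members, and the lists of related genes below, were chosen with earlier results of these data known. Their shares beside those of all genes are therefore a description and no test of the family. The median change was −0.06 over the 10 members and −0.01 over all genes, and the median size of change was 0.14 over the members and 0.13 over all genes. Levels varied more among knockdown than among control clones in 7 members, with a median SD of 0.137 in knockdown and 0.0752 in control clones, and the same held for 76.7% of all genes.

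**Figure D1:**
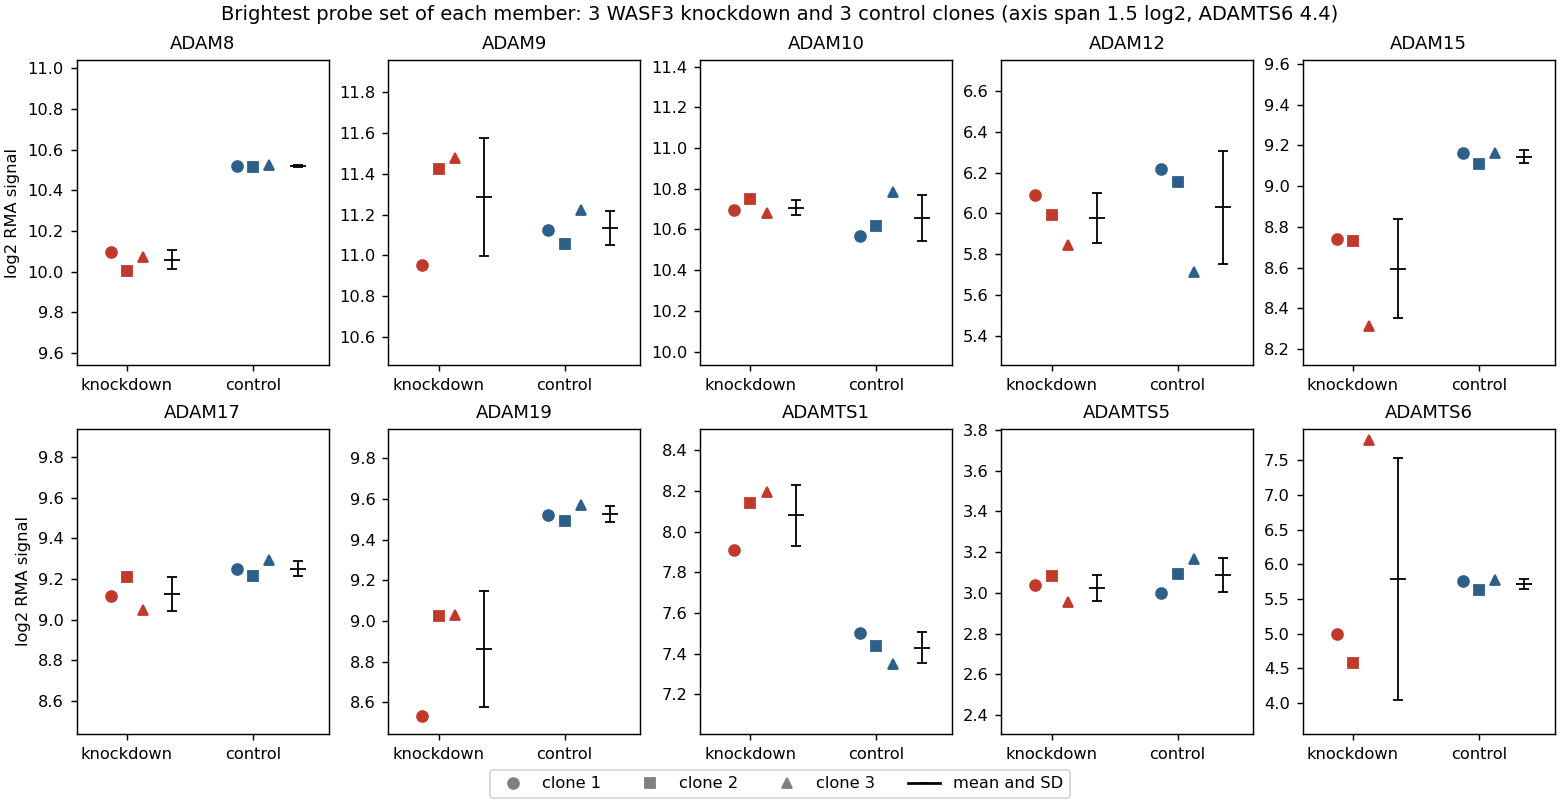
The log2 RMA signal of the brightest probe set of each member is plotted for the 3 knockdown clones (red) and the 3 control clones (blue), with a marker shape for each clone and the mean with its SD beside them. Each vertical axis spans 1.5 log2 units, except that of ADAMTS6, which spans 4.4. The groups are apart for ADAM8, ADAM15, ADAM17, ADAM19 and ADAMTS1, and knockdown clone 3 stands alone for ADAMTS6.

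The 250 bases before the annotated start of ADAM8, ADAM15 and ADAM19, the members that were lower with an unadjusted p under 0.05 though none passed the test, are shown because they lie just upstream of where transcription is annotated to begin. They come from RefSeq (GRCh38.p14), which gave promoters for 7 of the 10 members, and are written 5′ to 3′ on the strand of the gene. Capitals mark each match to the GC box (GGGCGG on either strand) in ADAM8 and ADAM15, and each match to the NF-kB site on either strand in ADAM19.
ADAM8 (chr10:133276869-133277118, minus strand): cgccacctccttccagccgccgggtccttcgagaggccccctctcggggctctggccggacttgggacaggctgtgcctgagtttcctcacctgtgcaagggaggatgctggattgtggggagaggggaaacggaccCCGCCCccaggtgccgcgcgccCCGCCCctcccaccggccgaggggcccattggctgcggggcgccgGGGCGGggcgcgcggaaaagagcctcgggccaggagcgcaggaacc
ADAM15 (chr1:155051066-155051315, plus strand): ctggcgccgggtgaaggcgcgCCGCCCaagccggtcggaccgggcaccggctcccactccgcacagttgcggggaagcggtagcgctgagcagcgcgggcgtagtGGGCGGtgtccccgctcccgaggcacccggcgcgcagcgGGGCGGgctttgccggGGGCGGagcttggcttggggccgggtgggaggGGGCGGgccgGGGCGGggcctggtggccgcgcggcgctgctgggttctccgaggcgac
ADAM19 (chr5:157575776-157576025, minus strand): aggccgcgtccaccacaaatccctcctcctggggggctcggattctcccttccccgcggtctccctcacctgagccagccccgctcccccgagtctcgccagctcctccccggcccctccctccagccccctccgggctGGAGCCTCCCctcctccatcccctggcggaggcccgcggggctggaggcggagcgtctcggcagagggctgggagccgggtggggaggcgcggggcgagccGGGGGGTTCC
All 3 stretches are rich in G and C, at 73.6%, 79.6% and 76.4% for ADAM8, ADAM15 and ADAM19, where the median over 35116 promoters is 58%. ADAM8 holds 3 GC boxes, ADAM15 holds 6 and ADAM19 holds none, while 42.6% of all promoters hold at least 1. The NF-kB site has 2 matches in ADAM19 and none in ADAM8 or ADAM15, against 9.96% of all promoters with a match. The core of the hypoxia response element (ACGTG, 18.5% of all promoters) and the AP-1 site (TGANTCA, 6.57%) have no match in these 3 windows, on either strand. Of the 7 members with a promoter, 5 hold a GC box and 3 an NF-kB match, so neither is particular to the members that were lower. ADAM17, with no unadjusted p under 0.05, has 75.6% G and C, 3 GC boxes and 1 NF-kB match. No 2 of the marked matches overlap. These letters are a description of the windows and no binding was measured.

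ADAM8, an active sheddase that removes its own prodomain and was first described in leukocytes, was lower on both of its probe sets. The brighter one read 10.10, 10.01 and 10.07 in knockdown clones 1, 2 and 3, against 10.52, 10.52 and 10.52 in the control clones. The groups were clearly apart and both were tight, with an SD of 0.0475 in knockdown and 0.00431 in control clones. The mean in knockdown clones was 72.6% of the control signal (change −0.46, SE 0.08, 95% interval −0.65 to −0.27), and it missed the threshold (adjusted p = 0.0621). The dimmer probe set read 5.88, 6.11 and 6.26 in knockdown clones, against 6.54, 6.53 and 6.66 in control clones. It gave a change of −0.49 (SE 0.12, adjusted p = 0.120), which is close to that of the brighter one. Of the 13 alternatives run on the brighter probe set, 3 put it past the threshold and 10 did not, with adjusted p-values from 0.0319 to 0.329. The mean of both probe sets also passed (−0.48, adjusted p = 0.0420). With the 3′/5′ index in the fit the brighter probe set gave −0.51 (adjusted p = 0.268) and the dimmer one −0.25 (adjusted p = 0.597), so the closeness of their values does not hold in that fit. The next gene along the chromosome, TUBGCP2, gave −0.41 (SE 0.18, adjusted p = 0.365).

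ADAM15, whose disintegrin domain in humans carries an integrin-binding RGD motif, was also lower on both probe sets. The brighter one read 8.74, 8.73 and 8.31 in knockdown clones 1, 2 and 3, against 9.16, 9.11 and 9.16 in control clones. Clone 3 was the lowest, and the other knockdown clones were still below every control clone. The mean in knockdown clones was 68.4% of the control signal (change −0.55, SE 0.13, 95% interval −0.85 to −0.25, adjusted p = 0.121). The dimmer probe set read 6.54, 6.31 and 5.87 in knockdown clones, against 6.81, 6.61 and 6.62 in control clones. The groups were apart here too, and the change was −0.44 (SE 0.17, adjusted p = 0.301). Both probe sets had knockdown clone 3 lowest and knockdown clone 1 highest within that group. Without clone 3 the change on the brighter probe set was −0.41 and passed (adjusted p = 0.0449). That fit called 784 of all genes higher and 441 lower, against 63 and 83 with all 6 clones. Adjusted p-values of ADAM15 ran from 0.0449 to 0.437 over its 15 alternatives, 1 of them on the mean of both probe sets.

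ADAM19, also called meltrin beta and known to shed neuregulins, had the largest difference among the members that were lower. Its brightest probe set read 8.53, 9.02 and 9.03 in knockdown clones 1, 2 and 3, against 9.52, 9.49 and 9.57 in control clones. Clone 1 was the lowest, at −0.99 from the control mean, and clones 2 and 3 lay together at −0.50. The mean in knockdown clones was 63.2% of the control signal (change −0.66, SE 0.14, 95% interval −0.999 to −0.33, adjusted p = 0.101). The other probe set, with readings of 5.15, 5.10 and 5.05 in knockdown and 5.36, 5.16 and 5.14 in control clones, lies in the range of the genes of unrelated tissues. Its groups overlapped, and it gave −0.11 (SE 0.10, adjusted p = 0.663). Clone 1, with the lowest ADAM19 signal, also had the highest 3′/5′ index (2.11, against 1.62 and 1.66 in knockdown clones 2 and 3). With this index in the fit the change of ADAM19 was −0.26 (adjusted p = 0.582), while the brightest probe set of ADAM15 gave −0.68. Without clone 1 ADAM19 gave −0.50 and passed (adjusted p = 0.0431), as it did without knockdown clone 3 (−0.75, adjusted p = 0.0340). Adjusted p-values ran from 0.0340 to 0.582 over its 15 alternatives, 1 of them on the mean of both probe sets.

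**Figure D2:**
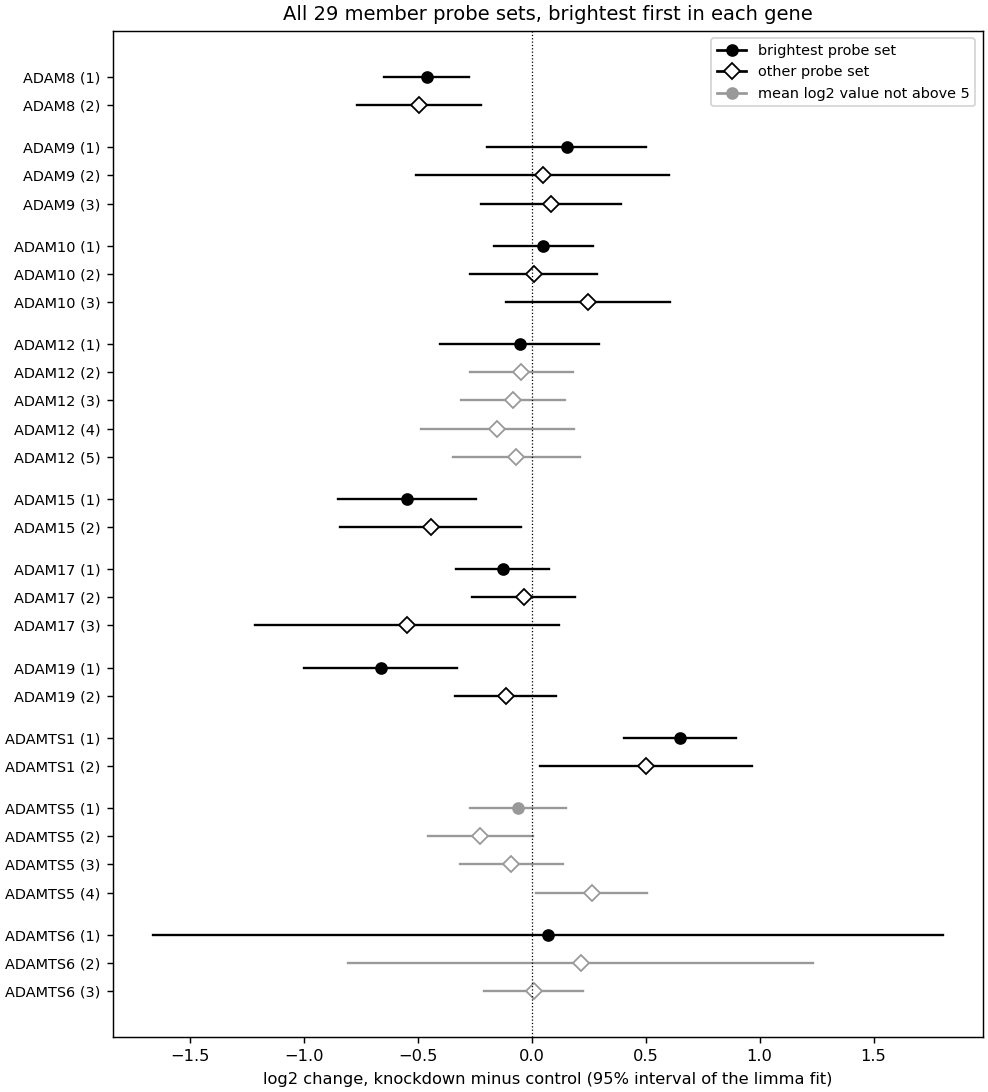
Each line is 1 of the 29 member probe sets, with its log2 change (knockdown minus control) as a point and the 95% interval of the limma fit as a bar. Filled circles are the brightest probe set of each gene, open diamonds the others, and grey marks those with a mean log2 value not above 5. The intervals of both probe sets of ADAM8, ADAM15 and ADAMTS1 lie wholly to 1 side of 0, and the brightest of ADAMTS6 has the widest interval.

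ADAMTS1, a secreted protease that cuts the proteoglycans aggrecan and versican and has antiangiogenic activity, was the only member that was higher in the knockdown clones with an unadjusted p under 0.05. The brighter probe set read 7.91, 8.14 and 8.19 in knockdown clones 1, 2 and 3, against 7.50, 7.44 and 7.35 in control clones. Every knockdown clone was above every control clone, and the signal was 1.57-fold higher (change 0.65, SE 0.11, 95% interval 0.40 to 0.90), just short of the threshold (adjusted p = 0.0532). The dimmer probe set read 5.24, 5.91 and 5.98 in knockdown clones, against 5.24, 5.05 and 5.33 in control clones. There clones 2 and 3 were higher while clone 1 lay within the control range, and the change was 0.50 (SE 0.20, adjusted p = 0.320). Without clone 1 the brighter probe set gave 0.74 (adjusted p = 0.0235) and the dimmer one also 0.74 (adjusted p = 0.0325), and both passed. The dimmer one, however, lies in the range of the genes of unrelated tissues in both groups. Of the 13 alternatives on the brighter probe set, 5 put it past the threshold and 8 did not, with adjusted p-values from 0.0222 to 0.292 and changes from 0.59 to 0.87. The mean of both probe sets gave 0.58 (adjusted p = 0.112). With the 3′/5′ index in the fit, which is highest in clone 1, the brighter probe set gave 0.87 (adjusted p = 0.1885). The dimmer one gave 1.14 in that fit (adjusted p = 0.184).

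ADAMTS5, an aggrecanase, is the next protein-coding gene to ADAMTS1 on chromosome 21 in the RefSeq order. All 4 of its probe sets lay at the bottom of the scale, with means over the 6 arrays of 2.54 to 3.06. They fall within the range of the genes of unrelated tissues or below it, so ADAMTS5 is not shown to be expressed in either group. The brightest gave −0.06 (SE 0.09, adjusted p = 0.821), and the others ran from −0.22 to 0.26. The 2 of them whose groups did not overlap pointed in opposite directions, so no direction is read for this gene.

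ADAMTS6, a secreted protease closely related to ADAMTS10, differed among the knockdown clones far more than between the groups. Its brightest probe set read 4.999, 4.57 and 7.79 in knockdown clones 1, 2 and 3, against 5.75, 5.63 and 5.77 in control clones. Relative to the control mean, clone 3 was at 2.08, clone 1 at −0.72 and clone 2 at −1.14, and the 3 control clones lay within 0.14 of each other. The change between group means was therefore 0.07 with an SE of 0.74 (95% interval −1.66 to 1.80, adjusted p = 0.981), and it describes none of the knockdown clones. The next probe set repeated the order at lower signal, with 4.00, 3.65 and 5.56 in knockdown clones and 4.13, 4.22 and 4.21 in control clones. The third read 3.13 to 3.34 in knockdown and 3.15 to 3.27 in control clones, at the level of the genes of unrelated tissues. Without knockdown clone 3, the clone with the least WASF3 signal left (23.8%, against 43.8% and 57.5% in clones 1 and 2), the change of the brightest probe set was −0.93 and passed (adjusted p = 0.0158, in a range of 0.0158 to 0.997 over 15 alternatives, 1 of them on the mean of its probe sets). On this probe set the control clones and knockdown clones 1 and 2 all lie inside the range of the genes of unrelated tissues, and so does every value of the next probe set. ADAMTS6 is therefore not shown to be expressed in the control clones or in knockdown clones 1 and 2, and the difference of −0.93 is one between values at that level.

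**Figure D3:**
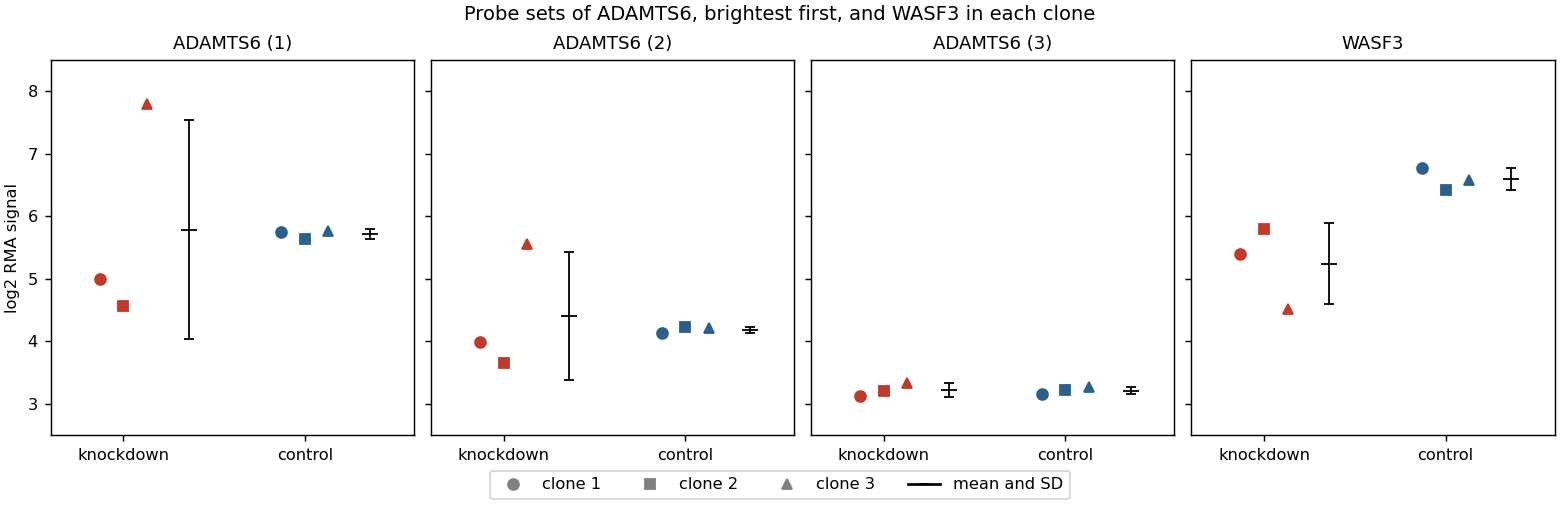
The log2 RMA signal of the 3 probe sets of ADAMTS6, brightest first, and of WASF3 is plotted for each knockdown clone (red) and control clone (blue) on a shared vertical axis, with the mean and SD. Knockdown clone 3 is the highest on the first 2 probe sets of ADAMTS6 and the lowest for WASF3.

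ADAMTS6 had the widest range of any member over the 6 arrays, 3.22. The genes whose pattern was most like it, by Pearson correlation over the 6 arrays among 13042 other genes with a mean above 5, were LINC01607 (r = 0.997), GSDMB (r = 0.996) and EGR1 (r = 0.996). EGR1, an immediate early transcription factor, read 7.88, 7.61 and 10.01 in knockdown clones 1, 2 and 3, against 8.62, 8.51 and 8.45 in control clones, and so shared the high value of clone 3. These correlations rest on that 1 array, and 389 genes (2.98%) reached an r of 0.9.

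The broad sheddases ADAM10, ADAM17 and ADAM9 did not pass the test on any probe set. On the brightest probe set the change was small for ADAM10 and ADAM17, while the knockdown clones were unlike each other for ADAM9. ADAM10, which cuts Notch receptors and the amyloid precursor protein, read 10.69, 10.75 and 10.68 in knockdown clones, against 10.57, 10.62 and 10.79 in control clones on its brightest probe set. The knockdown values lay inside the control range, and the interval of the change ran from −0.17 to 0.27 (change 0.05, adjusted p = 0.863). Its other 2 probe sets gave 0.01 and 0.25, with overlapping groups, and the latter had means in the range of the genes of unrelated tissues.

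ADAM17, the enzyme that releases tumour necrosis factor and several EGFR ligands, read 9.12, 9.21 and 9.05 in knockdown clones, against 9.25, 9.21 and 9.29 in control clones. The groups all but touched, since knockdown clone 2 and control clone 2 both read 9.21, and the change was −0.13 (SE 0.09, 95% interval −0.33 to 0.08, adjusted p = 0.583). Another probe set gave −0.03 (SE 0.10). The dimmest of the 3 read 6.07, 7.33 and 6.83 in knockdown clones, against 7.28, 7.14 and 7.46 in control clones. Its change of −0.55 (SE 0.29, adjusted p = 0.454) rested mostly on clone 1, which lay at −1.22 from the control mean, and the groups overlapped. With the 3′/5′ index in the fit, which is highest in clone 1, it turned to 0.33 (adjusted p = 0.694).

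ADAM9, another broad sheddase, read 10.95, 11.42 and 11.48 in knockdown clones 1, 2 and 3, against 11.12, 11.05 and 11.22 in control clones. Clone 1 was below all control clones and clones 2 and 3 were above them, so the change of 0.15 (SE 0.15, 95% interval −0.20 to 0.50, adjusted p = 0.714) is again a mean over unlike clones. With the 3′/5′ index in the fit it was 0.58 (adjusted p = 0.293). Its other 2 probe sets, with means in the range of the genes of unrelated tissues, gave 0.05 and 0.08.

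ADAM12, or meltrin alpha, which is made in a membrane and a secreted form, read 6.09, 5.99 and 5.85 in knockdown clones, against 6.22, 6.16 and 5.71 in control clones on its brightest probe set. The groups overlapped (change −0.05, SE 0.15, adjusted p = 0.917), and the other 4 probe sets, with control means from 3.13 to 4.10 and changes from −0.15 to −0.045, were at the level of the genes of unrelated tissues. Nothing is shown for ADAM12 beyond a low signal in both groups.

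**Figure D4:**
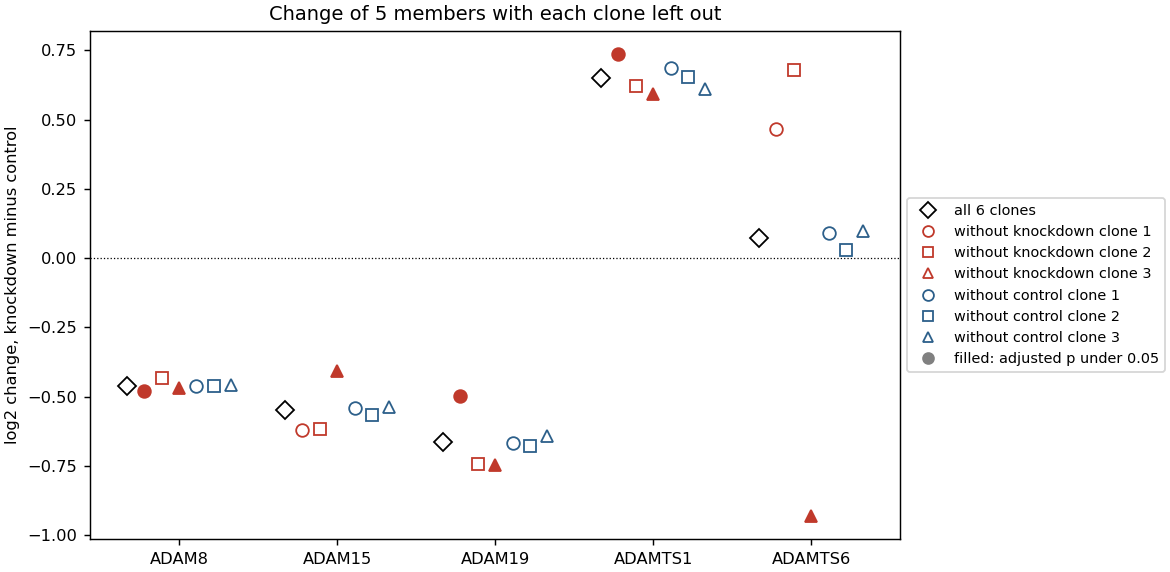
The log2 change (knockdown minus control) of the brightest probe set is plotted for ADAM8, ADAM15, ADAM19, ADAMTS1 and ADAMTS6 with all 6 clones (black diamond) and with each knockdown (red) or control (blue) clone left out. Filled markers have an adjusted p under 0.05. ADAM8, ADAM15, ADAM19 and ADAMTS1 keep their side of 0 in all 6 fits, while ADAMTS6 goes to −0.93 without knockdown clone 3.

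The rest of both families was mostly dim, and no gene of it passed the test. Of 12 other ADAM genes measured, none passed in limma, and the median change was −0.01. None had an unadjusted p under 0.05, where 16.8% of all genes did. The 2 with the smallest p were ADAM11, at 5.19 ± 0.13 in knockdown and 4.99 ± 0.05 in control clones (0.20, adjusted p = 0.420), and ADAM18 (−0.20, adjusted p = 0.459). Of 20 other ADAMTS and ADAMTS-like genes none passed in limma. An unadjusted p under 0.05 was reached by 1 in the higher and 2 in the lower direction, against 9.11% and 7.67% of all genes. ADAMTS12, a secreted matrix protease, read 8.02, 9.29 and 9.21 in knockdown clones 1, 2 and 3, against 7.89, 7.85 and 7.90 in control clones. As with the dimmer probe set of ADAMTS1, clones 2 and 3 were high and clone 1 was near the controls, and the change was 0.96 (SE 0.31, adjusted p = 0.231). The other probe set of ADAMTS12 gave −0.16. ADAMTS17 gave −0.62 (SE 0.22, adjusted p = 0.267), with means of 4.92 in knockdown and 5.54 in control clones. Both means lie in the range of the genes of unrelated tissues.

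Among 24 genes that activate, traffic or inhibit these proteases none passed in limma, and the median change was −0.12. An unadjusted p under 0.05 was reached by 4, all in the lower direction, against 7.67% of all genes in that direction. TIMP3, the matrix-bound inhibitor of ADAM17 and of aggrecanases, read 11.13, 11.55 and 10.16 in knockdown clones, against 11.86, 11.86 and 11.99 in control clones. All knockdown clones were below all control clones on 3 of its 4 probe sets, with changes of −0.96 (SE 0.31, adjusted p = 0.230), −0.49 and −0.48, and the groups overlapped on the fourth (−0.73). TIMP1, a secreted inhibitor, read 12.78 ± 0.19 in knockdown and 13.15 ± 0.01 in control clones (−0.38, SE 0.11, adjusted p = 0.195). LRP1, an endocytic receptor that clears ADAMTS proteases and TIMPs, gave −0.33 (SE 0.11, adjusted p = 0.226). FURIN, the convertase that removes the prodomain of several members, gave −0.33 with overlapping groups (SE 0.15, adjusted p = 0.371). The iRhom genes RHBDF1 and RHBDF2, whose products carry ADAM17 to the cell surface, gave −0.16 (adjusted p = 0.496) and −0.05 (adjusted p = 0.920).

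Transcripts of substrates gave 1 call, where 0.738% of all genes were called. Of 35 membrane proteins known to be shed by ADAM proteases, the adhesion molecule ICAM1 passed and fell, with a log2 change of −1.71 (SE 0.24, adjusted p = 0.0430), and 0 rose. An unadjusted p under 0.05 was reached by 3 of the 35 in the higher and 7 in the lower direction, against 9.11% and 7.67% of all genes. The ICAM1 call is that of its brightest probe set with all 6 clones, and it was not followed through the alternatives. Over all genes, 1 was called lower with the 3′/5′ index in the fit, and 2 or 3 without 1 control clone. The level of ICAM1 is that of the transcript, and shedding itself was not measured. Of 5 EGFR ligands none passed and none had an unadjusted p under 0.05 in limma, the latter against 16.8% of all genes. TGFA (0.46, adjusted p = 0.545) and EREG (−0.22, adjusted p = 0.609) had the smallest p, and HBEGF gave −0.14 (adjusted p = 0.754). AREG was not analysed here. Of 19 matrix substrates of ADAMTS proteases none passed in limma. An unadjusted p under 0.05 was reached by 1 in the higher and 4 in the lower direction, against 9.11% and 7.67% of all genes. The 2 with the smallest p were NCAN, dim in both groups (−0.39, adjusted p = 0.106), and the Kunitz-type inhibitor TFPI2, which read 9.26 ± 0.34 in knockdown and 10.01 ± 0.13 in control clones (−0.75, SE 0.17, adjusted p = 0.115). VCAN, the versican gene, read 3.98, 3.98 and 5.70 in knockdown clones 1, 2 and 3, against 4.17, 4.00 and 3.94 in control clones (0.52, SE 0.43, adjusted p = 0.657). Clone 3 was the highest, as it was for ADAMTS6, but every VCAN value lies in the range of the genes of unrelated tissues. VCAN is therefore not shown to be expressed in any clone.

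**Figure D5:**
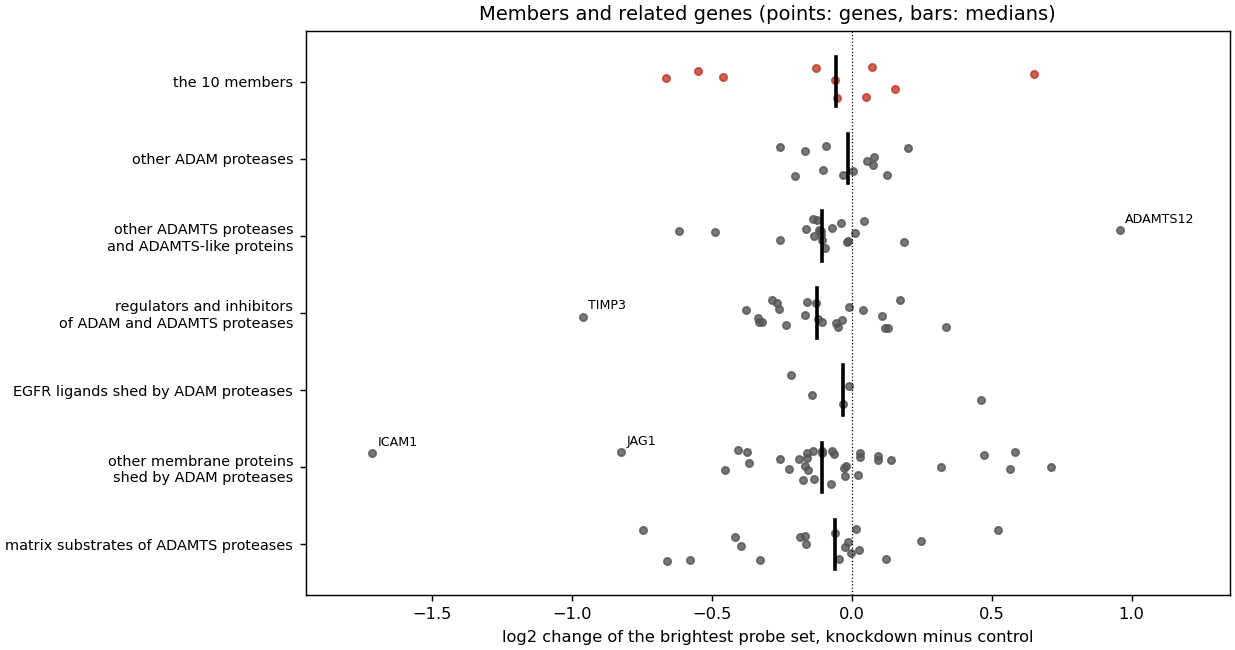
Each point is the log2 change (knockdown minus control) of 1 gene on its brightest probe set, for the 10 members (red) and for 6 lists of related genes (grey), and the bar is the median of the list. The medians lie between −0.12 and −0.01, and ICAM1 at −1.71 is the gene that passed the test.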

How the data were processed

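RNA of 3 WASF3 knockdown and 3 control clones was measured on 1 array each. The deposited values are log2 signals. The submitters' processing notes name RMA and Affymetrix Expression Console 1.0 as the authors' tools. RMA corrects for background, gives all arrays 1 distribution and summarises the probes of a probe set, so a shift shared by most transcripts is not seen. Labelling followed a 3′ protocol, per the labels' protocols. The number of arrays limits the precision. The table held 0 columns of other samples.

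Probe sets were named from the platform annotation, and symbols were updated by gene identifier in RefSeq (GRCh38.p14): 41091 had 1 symbol (41037 of them matched), 1801 several and 11721 none. The 62 control probe sets were left out of the tests. Probe sets with several symbols gave no gene name.

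Groups were compared with lmFit and eBayes of limma 3.58.1 (R 4.3.3), two-sided and without covariates. The fit was tested on simulated data. Named genes were all members on all probe sets, WASF3, RHBDF1, RHBDF2, FURIN, TIMP1, TIMP3, AREG, HBEGF and VCAN. From each of 6 lists up to 4 called genes by size were named, or the 2 with the smallest p where no gene was called. The 3 genes most like the member with the widest range were also named. TUBGCP2, VENTX, UTF1 and the genes of the closing observations fall outside this rule and were chosen after their values were seen. The members and lists were chosen with earlier results of these data known. The alternatives left out each clone, blocked by clone number, added the 3′/5′ index as a covariate, changed the prior, the array weights, the scaling or the filter (mean log2 value above 5), dropped probe sets matching several transcripts, or took the mean of a gene's probe sets.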

Additional observations from a re-analysis of the deposited data

How the results depend on the processing

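With all 6 clones, 63 genes were called higher and 83 lower, and 0 members passed. Without 1 clone these counts ran from 0 to 784 higher and from 2 to 441 lower, those of member probe sets from 0 to 6 and those of members from 0 to 5. The 5 members, without knockdown clone 3, were ADAM8, ADAM15, ADAM19, ADAMTS1 and ADAMTS6, in a fit that called 784 of all genes higher and 441 lower. The 3 without knockdown clone 1 were ADAM8, ADAM19 and ADAMTS1, in a fit that called 384 higher and 323 lower. Calls thus rose over all genes in these fits, and not only among the members. Clones with the same number were not alike (correlations of their deviations from the group means of −0.0696, −0.0957 and −0.0417), and with the clone number as a replicate block 0 genes were higher, 3 lower and 0 members passed. With the 3′/5′ index in the fit 0 were higher and 1 lower, and with an intensity trend 19 and 44. Array weights gave 419 and 295, with 3 members and 4 member probe sets called, and WASF3 passed at −1.16. Median-centred arrays gave 79 and 70, with 1 member and 1 member probe set called (ADAMTS1). A mean above 5 gave 97 higher and 98 lower, with the same 1 member and 1 member probe set. Without probe sets matching several transcripts there were 37 and 51, and ADAM8 and ADAMTS1, which have no other kind, gave no value. The mean of all probe sets of a gene gave 110 and 128 and 1 member (ADAM8). ADAMTS5 has no value above a mean of 5. The change of WASF3 ran from −1.63 to −0.99 without 1 clone and passed without knockdown clone 3. ADAM12 ran from −0.21 to 0.043 without 1 clone and was above 0 without knockdown clone 3 (0.013) and without control clone 1 (0.043) or 2 (0.011). ADAMTS6 ran from −0.93 to 0.68 without 1 clone and was below 0 without knockdown clone 3 (−0.93) and with array weights (−0.43). Fits without 1 clone have fewer samples, and beyond that the cause of these differences was not tested. The other members kept their direction on their brightest probe set in all alternatives that gave a value, while with the 3′/5′ index in the fit 4 of the 29 member probe sets, none of them the brightest of its gene, turned to the other direction.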

Other observations

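Several shed membrane proteins outside the naming rule, chosen after their values were seen, differed between the groups without passing the test. MICA had the smallest p of these in limma (0.56, SE 0.09, adjusted p = 0.0534). VCAM1, dim in both groups, gave −0.45 (SE 0.10, adjusted p = 0.111). All but ALCAM are given on their brightest probe set only. ALCAM, an adhesion molecule shed by ADAM17, read 11.62, 11.96 and 12.04 in knockdown clones 1, 2 and 3, against 11.24, 11.32 and 11.32 in control clones. Its 3 probe sets gave changes of 0.58, 0.65 and 0.71, with adjusted p-values of 0.0969, 0.102 and 0.288 in limma. NRG1, the neuregulin gene, read 9.75, 10.06 and 10.40 in knockdown clones, against 9.45, 9.32 and 9.32 in control clones (0.71, SE 0.16, adjusted p = 0.109). All knockdown clones thus read above all control clones for NRG1 on this probe set. For ADAM19, known to shed neuregulins, all read below them on the brightest probe set only, and the groups overlapped on the other. The change of ADAM19 was −0.26 with the 3′/5′ index in the fit. A link between the 2 genes was not tested.

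JAG1, a Notch ligand, read 12.35, 11.98 and 11.08 in knockdown clones 1, 2 and 3, against 12.61, 12.55 and 12.73 in control clones. The change was −0.82 (SE 0.29, adjusted p = 0.262), and clone 3 was the lowest, as it was for ADAM15 and TIMP3. NOTCH1 gave −0.37 (SE 0.10, adjusted p = 0.157). FN1, the fibronectin gene, read 10.64, 11.63 and 12.58 in knockdown clones, against 12.25, 12.25 and 12.32 in control clones on its brightest probe set. Clone 3 was above the control clones and clones 1 and 2 below them, so the groups overlapped (−0.66, SE 0.42, adjusted p = 0.544).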
